A study of Mus musculus with 9 samples.

Results

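The NF-kB subunits and inhibitors described here are 10 genes, chosen by name, of the 45535 rows with a gene symbol in the deposited table. They are the 5 subunit genes Nfkb1, Nfkb2, Rel, Rela and Relb and the 5 inhibitor genes Nfkbia, Nfkbib, Nfkbie, Nfkbiz and Tnfaip3. Each matched exactly 1 row, and all 10 passed the filter on low values, a mean normalized read count of at least 10 over the 9 samples. They were measured by RNA sequencing in CD103+ dendritic cells, antigen-presenting cells that carry the integrin encoded by Itgae, from the lungs of C57/BL6j mice. Every mouse had received bleomycin, which injures the lung and is used to model fibrosis, for 7 days before the lungs were digested with collagenase and CD103+ cells were isolated with magnetic beads. RNA of 5 samples was taken directly (before culture), and RNA of 4 samples after 18 h in RPMI with 10% serum and antibiotics (after culture). No mice without bleomycin and no other culture times are used here, and the number of mice behind a sample is not in the labels. The extraction text speaks of lung RNA, whereas the cell type label names the isolated cells.

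NF-kB is a family of dimeric transcription factors that resting cells hold in the cytoplasm. Inhibitor (IκB) proteins bind the dimers until the IKK kinase complex marks them for destruction, and the freed dimers then switch on genes of inflammation, survival and antigen presentation. In the canonical branch, dimers of Rela or Rel with the processed Nfkb1 product respond within minutes and induce their own inhibitors. In the non-canonical branch, the kinase encoded by Map3k14 has the Nfkb2 precursor processed, and Relb dimers form. Relb and Rel are known for their part in dendritic cell development and maturation.

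Several of the genes that encode the inhibitors are textbook NF-kB targets. The sequence just before the start of 5 members is therefore shown, to let a reader see where a kappaB-like motif lies. RefSeq promoter windows (build GRCm38.p6, 250 bases before to 50 after a gene's start) were found for 7 of the 10 members, with no entry for Nfkb1, Relb and Nfkbiz. The motif searched on both strands was GGG, any 3 bases, then TTCC, a form of the kappaB element chosen after the windows had been read. Read from the other strand it is GGAA, any 3 bases, then CCC. Capitals mark a match. Each line is read 5′ to 3′ along the gene's own strand and ends at the last base before the RefSeq start.
Nfkbia (chr12:55492648-55492767, minus strand): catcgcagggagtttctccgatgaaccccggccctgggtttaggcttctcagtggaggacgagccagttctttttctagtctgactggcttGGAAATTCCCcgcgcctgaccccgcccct
Tnfaip3 (chr10:19015411-19015440, minus strand): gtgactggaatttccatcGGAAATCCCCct
Nfkbie (chr17:45555580-45555699, plus strand): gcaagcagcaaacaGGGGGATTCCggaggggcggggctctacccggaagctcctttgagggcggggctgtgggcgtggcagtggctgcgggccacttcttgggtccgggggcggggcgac
Nfkb2 (chr19:46304707-46304736, plus strand): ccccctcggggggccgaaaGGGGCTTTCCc
Rel (chr11:23770970-23771089, minus strand): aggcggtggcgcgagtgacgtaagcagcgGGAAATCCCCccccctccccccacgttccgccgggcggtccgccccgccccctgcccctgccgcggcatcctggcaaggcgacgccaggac
The match began 29 bases before the start in Nfkbia, 12 in Tnfaip3, 106 in Nfkbie, 11 in Nfkb2 and 91 in Rel. Tnfaip3 and Nfkb2 are shown over 30 bases and the others over 120, and Nfkb2 has a further match 38 bases before its start. Of the 7 members with a window, 5 held a match and Rela and Nfkbib held none. Nfkb2 and Tnfaip3 also have windows at other starts, which are not shown. For these 2 genes the RefSeq start used here lies inside the GENCODE M21 gene span given below. Their printed bases are thus within that span, not upstream of it. Over all genes with a window, 6.31% held a match (1704 of 27025). Because the form was chosen after the members' windows had been read, their matches cannot be weighed against that share. Among the genes tested below, a match was held by 7.76% of those that rose, 7.09% of those that fell and 6.92% of those that did not pass the test. A match describes letters in a window and is not a bound site.

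Depth in rows with a symbol ran from 14.7 to 35.3 M reads per sample. After scaling, 1 read equalled 0.758 to 1.79 normalized counts, small beside the lowest value of any member, 1405. The groups separated on the first principal component, which held 81.7% of the variance. On the second component (5.25%), replicate 4 before culture (−39.4, others 2.24 to 18) and replicate 3 after culture (−38, others −1.06 to 35.3) stood apart. Their library names carry the same number, 4. Replicate 2 after culture lay at the other end of that component, at 35.3. Replicate 4 before culture was also the lowest sample of its group for 6 of the 10 members. A list of 10 cDC1 genes with Itgae among them stood for the labelled CD103+ cells, and all were present in both groups. After culture 7 were lower, among them Itgae (18138 ± 1537 to 1727 ± 335, SD) and Xcr1 (5836 ± 781 to 114 ± 32.5). The 3 higher were Flt3 (8170 ± 638 to 13082 ± 1987), Batf3 and Zbtb46. The summed normalized count of the list went from 121489 to 149327 before culture to 29633 to 34492 after it. Wdfy4 was the largest part of that sum before culture (75717 ± 6275, and 4761 ± 811 after it). Over all genes tested below, 34.6% were lower and 34.2% higher after culture, the shares to set beside that list's counts and those that follow. Markers of other cells differed by list. All 8 tested of 10 neutrophil markers were lower after culture (summed count 14393 to 25089 before, 944 to 1916 after), as were all 10 endothelial (26120 to 37902, 3387 to 4500), all 10 fibroblast (17035 to 30668, 2453 to 4782), 8 of 10 alveolar epithelial (25080 to 41228, 4927 to 8787) and all 8 NK cell markers (3080 to 4930, 1268 to 1836). Of 10 macrophage markers 6 were lower, 1 higher and 3 did not pass (35355 to 54234, 21795 to 35421). Of 10 T cell markers 3 were lower, 1 higher and 6 neither (7903 to 9675, 6860 to 9233). Of 8 B cell markers 3 were lower, 1 higher and 4 neither (8411 to 12560, 6271 to 8768). The sums of both lists overlapped between the groups. In none of these lists was a marker at 0 in all samples. The part of these cells in the members' values was not tested, and in such bulk samples fewer cells of a type and less RNA per cell cannot be told apart.

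After culture, 4 of the 5 inhibitor genes were lower and 2 of the 5 subunit genes, Relb and Nfkb2, were higher. Nfkbiz fell most, 10.8-fold, followed by Tnfaip3 (5.17-fold), Nfkbia (3.15-fold) and Nfkbie (2.17-fold), and Relb rose 3.32-fold. Nfkb1 also fell, while Rel, Rela and Nfkbib did not pass the test. These folds are ratios of group means of normalized counts. Log2 fold changes, after minus before culture, are from limma on log2(normalized count + 1), with Benjamini-Hochberg adjusted p over the 18202 tested genes and a threshold of 0.05. Of all tested genes 68.8% passed, 34.2% higher and 34.6% lower, so the 7 of 10 members that passed are close to that share, and the median log2 fold change of the members was −0.42 against 0.006 over all tested genes. The groups did not overlap for those 7 members, which is so for 57.3% of all tested genes. Without replicate 4 before culture 2 members were higher and 6 lower, without replicate 2 after culture 3 and 6, and without replicate 3 after culture 2 and 5. Of the 18202 tested genes, 12691, 12353 and 12153 passed in these settings.

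**Figure D1:**
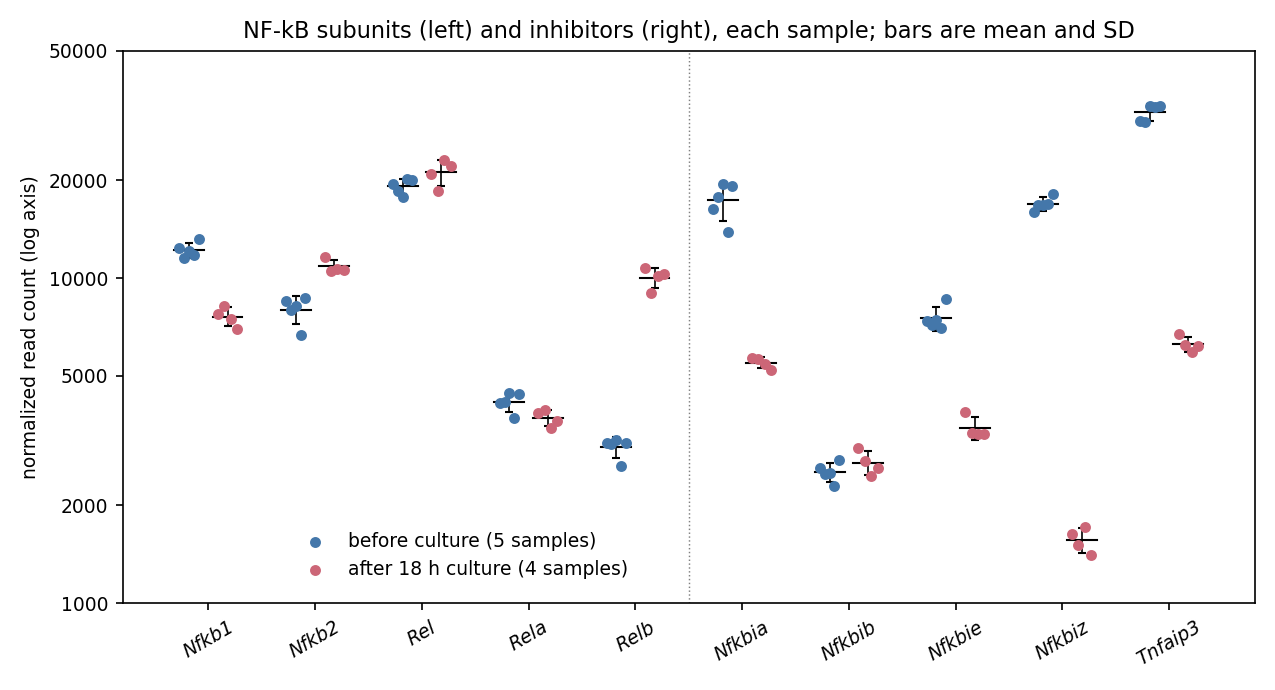
Normalized read count of each member in every sample on a log axis, with the mean and SD of each group: 5 samples before culture in blue and 4 after 18 h of culture in red. Nfkbiz, Tnfaip3, Nfkbia, Nfkbie and Nfkb1 sit lower after culture and Relb and Nfkb2 higher, with no overlap, while the groups of Rel, Rela and Nfkbib overlap.

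Among the subunits, Relb encodes the partner of the processed Nfkb2 product in the non-canonical branch and lies at chr7:19606217-19629438 (GRCm38, GENCODE M21, minus strand). Its normalized counts were 3110, 3094, 3174, 2634 and 3113 before culture and 10740, 8995, 10124 and 10258 after it. The lowest sample after culture was thus well above the highest before. The log2 fold change was 1.73 (SE 0.0785, limma adjusted p = 4.53e-10), higher than for 94.5% of tested genes.

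Nfkb2 (chr19:46304320-46312385, plus strand) encodes the precursor that both restrains Relb and, once processed, pairs with it. The samples before culture held 8520, 7987, 8175, 6661 and 8649 normalized counts and those after culture 11586, 10543, 10696 and 10607. The groups did not overlap, with replicate 4 low before culture and replicate 1 high after it, and the change was smaller than that of Relb (log2 fold change 0.45, SE 0.0841, limma adjusted p = 3.58e-04). Nfkb2 has a GC content of 59.4%, and its change was 1.02 once a trend over GC content and length was removed. On the opposite strand, exons of the non-coding gene AC114539.1 overlap 11.6% of the exonic bases of Nfkb2 and those of Psd 6.52%, and whether counting used the strand is not given in the sources used here. Psd went from 1825 ± 147 to 2397 ± 205 (SD, n = 5 and n = 4).

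Nfkb1 (chr3:135584655-135691547, minus strand), the counterpart of Nfkb2 in the canonical branch, moved the other way. It was read at 12335, 11544, 12083, 11745 and 13181 before culture and at 7741, 8200, 7503 and 6974 after it, so every cultured sample was below every uncultured one. Its log2 fold change was −0.68 (SE 0.0729, limma adjusted p = 2.14e-06), a 1.6-fold lower mean.

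Rel (chr11:23736847-23770970, minus strand) encodes the c-Rel subunit, which carries a transactivation domain and is most abundant in lymphoid and myeloid cells. The values were 19449, 18559, 17792, 20218 and 20007 before culture and 20849, 18554, 23032 and 22144 after it. Replicate 2 after culture lay within the earlier range and the other 3 cultured samples above it. The change of 0.14 did not pass (95% interval −0.05 to 0.32, limma adjusted p = 0.165). Without replicate 2 after culture it did (0.20, adjusted p = 0.0466), in a range of 0.0302 to 0.352 over all alternatives. With the GC content and length trend removed it passed in the other direction (−0.20, adjusted p = 0.0302).

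Rela (chr19:5637483-5648130, plus strand) encodes the main transactivating subunit of the canonical branch. The samples held 4122, 4158, 4421, 3711 and 4411 before culture and 3833, 3922, 3448 and 3628 after it. Replicate 4 before culture fell inside the range of the cultured samples, and the other 4 uncultured samples were above them all. Its change of −0.17 just missed the threshold (95% interval −0.33 to −0.01, limma adjusted p = 0.0582). It passed without replicate 4 before culture (−0.21, adjusted p = 0.0133) or replicate 2 after culture (−0.19, 0.0435), with TMM scaling (0.0401), quantile normalization (0.0177), sample weights (0.0198) or edgeR (0.0432). Over all alternatives the adjusted p ran from 3.17e-05 to 0.163, the lowest after removal of the GC content and length trend, where the direction was the opposite (0.39).

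The inhibitors held the largest changes of the group. Nfkbiz (chr16:55811375-55838899, minus strand) encodes IκBζ, an atypical nuclear family member that is itself induced by toll-like and interleukin-1 receptors and acts on a subset of NF-kB target genes. Its 5 values before culture, 15934, 16782, 16818, 16880 and 18131, had a coefficient of variation of 4.65%. After culture they were 1627, 1509, 1715 and 1405. The ranges are about an order of magnitude apart, and the log2 fold change was −3.44 (SE 0.0744, limma adjusted p = 1.2e-12), lower than for all but 2.28% of tested genes.

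Tnfaip3 (chr10:19000910-19015657, minus strand) encodes A20, a ubiquitin-editing enzyme that shuts off signalling upstream of IKK. It was read at 30473, 30091, 33706, 33660 and 33913 before culture and at 6719, 6235, 5911 and 6191 after it. The log2 fold change was −2.37 (SE 0.0749, limma adjusted p = 1.75e-11), and no sample of either group came near the other group's range.

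Nfkbia (chr12:55489410-55492647, minus strand) encodes IκBα, the inhibitor that NF-kB re-makes after each round of activation. Before culture it stood at 16316, 17770, 19448, 13869 and 19192, the widest spread of any member (coefficient of variation 13.3%), with replicate 4 lowest. The cultured samples were close together at 5689, 5648, 5421 and 5215 (4%). The log2 fold change was −1.65 (SE 0.0973, limma adjusted p = 5.7e-09).

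Nfkbie (chr17:45555703-45563169, plus strand) encodes IκBε, a further inducible inhibitor. It was read at 7369, 7148, 7445, 7019 and 8631 before culture and at 3870, 3346, 3304 and 3320 after it. In each group 1 sample was high, replicate 5 before and replicate 1 after culture, and the groups stayed apart (log2 fold change −1.12, SE 0.0802, limma adjusted p = 3.87e-08).

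Nfkbib (chr7:28758251-28767512, minus strand) encodes IκBβ, which is known as the slower, less inducible inhibitor. Its counts of 2596, 2490, 2514, 2297 and 2762 before culture and 2993, 2742, 2456 and 2613 after it overlapped almost fully. The change was 0.09 (95% interval −0.08 to 0.26, limma adjusted p = 0.308). It passed only where the GC content and length trend was removed (0.58, adjusted p = 2.23e-06), and the adjusted p ran up to 0.675 over the other alternatives. Exons of Ccer2 and Sirt2, on the opposite strand, overlap 14.5% and 1.94% of its exonic bases. Ccer2 was low (114 ± 33.4 before, 49.7 ± 18.2 after, SD), and Sirt2 was at 2975 ± 250 and 2434 ± 263.

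The change of a gene moved with its GC content across the whole table. In the fifth of tested genes with the lowest GC content (25 to 43.5%) the median log2 fold change was 0.44, and in the fifth with the highest (55.1 to 83.3%) it was −0.42. Members stand at both ends, Rel at 42.5% and Nfkb1 at 44.9% on one side, and Nfkb2 and Rela (59.4%), Nfkbib (58.8%) and Relb (56.8%) on the other. When a smooth fit of GC content and length was taken out of each sample, the 7 members that had passed kept their direction and their call. Then 4 members were higher (Relb, Nfkb2, Nfkbib and Rela) and 6 lower. Of the 17525 genes tested in that setting 11766 passed, 6027 higher and 5739 lower. Relb was at 2.17 and Nfkbie at −0.76, while Nfkbiz (−3.35), Tnfaip3 (−2.44) and Nfkbia (−1.50) stayed close to their earlier values. Whether this trend belongs to the cells or to the libraries was not tested.

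Closely related or partner members were then compared with each other, as the log2 ratio of their normalized counts in each sample. Each of 8 pairs was tested by an exact two-sided permutation test of the group labels, whose smallest p for 5 against 4 samples is 0.0159, with adjustment over the 8 pairs. Relb rose against Rela by 1.90 (SE 0.083), its ratio going from between −0.50 and −0.41 before to between 1.20 and 1.55 after culture (exact p = 0.0159, adjusted 0.0181). Between the precursors, the ratio of Nfkb2 to Nfkb1 rose by 1.13 (SE 0.077, exact p = 0.0159, adjusted 0.0181), and by 1.84 with the GC content and length trend removed. This ratio, not corrected for length, was −0.82 to −0.53 before and 0.36 to 0.60 after culture. Relb also rose more than its partner Nfkb2, by 1.28 (SE 0.048), with the same p. For Rel against Rela the difference of 0.30 (SE 0.13, exact p = 0.0476, adjusted 0.0476) passed narrowly. It failed when any sample other than replicate 4 before culture was left out (adjusted p 0.0714 to 0.107) and under quantile normalization (0.0952), and turned to −0.59 (0.0159) with the GC content and length trend removed.

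The inhibitors did not fall in step. Against Nfkbib, Nfkbia fell by 1.74 (SE 0.079) and Nfkbie by 1.21 (SE 0.039). Tnfaip3 fell further than Nfkbia by 0.72 (SE 0.1), and Nfkbiz further than Nfkbia by 1.79 (SE 0.1). All of these 4 differences reached the smallest exact p of 0.0159 (adjusted 0.0181), with no overlap of the groups. The log2 ratio of Nfkbiz to Nfkbia counts, not corrected for length, went from −0.02 (SD 0.18) to −1.82 (SD 0.11).

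To compare levels between genes, counts were divided by the length of each gene's longest coding transcript (normalized count per kb). Before culture the order was Nfkbia (10975 ± 1457), Tnfaip3 (7320 ± 432), Nfkbiz (4109 ± 191), Nfkbie (3089 ± 264), Nfkb1 (2958 ± 155), Rel (2572 ± 136), Nfkb2 (2080 ± 206), Rela (1533 ± 106), Relb (1369 ± 99.9) and Nfkbib (1228 ± 82, all SD, n = 5). Nfkbie and Nfkb1 differed by less than either SD. Rela lay above Relb and Relb above Nfkbib in all 5 samples, by more than either SD, though the ranges of each of these pairs overlapped. After culture it was Relb (4540 ± 334), Nfkbia (3481 ± 139), Rel (2832 ± 261), Nfkb2 (2823 ± 127), Nfkb1 (1847 ± 124), Nfkbie (1421 ± 112), Tnfaip3 (1417 ± 75.9), Rela (1365 ± 78.3), Nfkbib (1310 ± 110) and Nfkbiz (380 ± 33, all SD, n = 4). Rel and Nfkb2 could not be ordered. Nor could the 4 genes from Nfkbie to Nfkbib, except that Nfkbie and Tnfaip3 each lay above Nfkbib in all 4 samples. Their ranges overlapped that of Nfkbib, and the gaps between means were about the size of the SD. Relb thus went from rank 9 of 10 to rank 1, and Nfkbiz from rank 3 to rank 10. With merged exon lengths in place of the coding transcript, which lengthen Nfkb1 most, Nfkbia stayed first (3412 per kb after culture) and Relb (2582) came behind Rel (2832), at rank 3.

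As shares of the summed per-kb level of the 5 subunits, Relb made up 12.1 to 13.7% in the samples before culture and 32 to 34.8% in those after it. Nfkb1 went from 27.2 to 29% down to 12.6 to 15.6%, or, with merged exon lengths, from 13 to 13.9% down to 5.97 to 7.51%. With those lengths Relb went from 9.66 to 11% up to 25.6 to 27.7%. On the coding transcript lengths, Rela went from 13.9 to 15.5% down to 9.37 to 11.3%. The share of Nfkb2 was 17.6 to 20.6% before and 20.5 to 21.6% after, with overlap. Among the 5 inhibitors, Nfkbia kept the largest share (35.9 to 43.5% before, 42.1 to 44.4% after), while that of Nfkbiz went from 14.4 to 16.7% to 4.45 to 5.39% and that of Nfkbib from 4.31 to 4.96% to 15.4 to 17%. The summed inhibitor level was 26722 ± 1949 per kb before and 8009 ± 405 after culture (SD), and the summed subunit level 10513 ± 490 and 13408 ± 508. The ratio of the sums was 2.36 to 2.69 in the samples before and 0.571 to 0.633 in those after culture, a description of transcripts, not of protein. The inhibitor sum counts Nfkbiz and Tnfaip3, whose products act in the nucleus and upstream of IKK. It is thus not a measure of how many dimers could be bound.

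**Figure D2:**
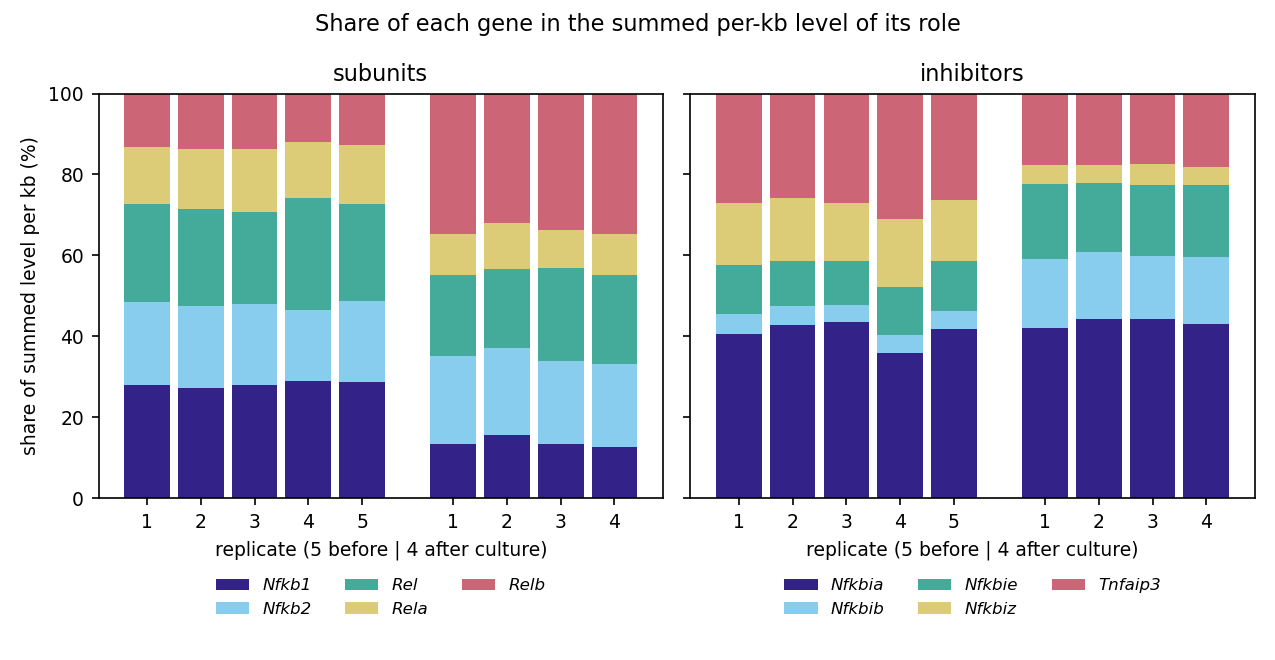
Share, in percent, of each subunit gene (left) and inhibitor gene (right) in the summed normalized count per kb of its role, 1 bar per sample, with 5 bars before and 4 after culture in each panel. The Relb share goes from 13 ± 0.665% to 33.8 ± 1.31% and that of Nfkbiz from 15.4 ± 0.843% to 4.75 ± 0.43% (SD), with little difference between replicates.

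The rest of the pathway is described by 7 lists written from general knowledge, 87 genes in all, each of which passed the filter on low values. Over all tested genes 34.2% were higher and 34.6% lower, the shares to set beside each list count below. Genes named are those with the smallest adjusted p in a list, abundant genes that did not pass, and, named after their values were seen, groups of 5 or fewer. Both other IκB genes fell with the inhibitors. Nfkbid, a nuclear IκB needed for Rel-dependent programs, went from 7710 ± 513 to 1134 ± 64.2 (SD, n = 5 and n = 4, log2 fold change −2.76, limma adjusted p = 4.34e-12). Bcl3, a coactivator of the precursor-derived dimers, went from 4450 ± 932 to 2368 ± 319 (−0.89). Bcl3 no longer passed once the GC content and length trend was removed (−0.21, adjusted p = 0.0885).

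Of the 11 genes of the IKK complex and upstream kinases, 8 were higher, 1 lower and 2 did not pass (median 0.31), and with the GC content and length trend removed 3 were lower. Ikbkg, the regulatory IKK subunit, rose 3.6-fold, from 603 to 747 before to 2214 to 2613 after culture (log2 fold change 1.85, limma adjusted p = 6.83e-10). Map3k14, the kinase that starts the non-canonical branch, rose 2.21-fold from 6292 ± 534 to 13910 ± 1479. The IKK-related kinases Ikbke (867 ± 96.2 to 1840 ± 374) and Tbk1 (1237 ± 73.1 to 1971 ± 81.9) also rose. The 1 lower gene was Map3k8, the kinase held by the Nfkb1 precursor (1713 ± 98.6 to 1173 ± 86.9). Tab1 (0.09) and Tab3 (0.18), adaptors of the kinase upstream of IKK, did not pass. Tab1 passed with the GC content and length trend removed (0.59), and Tab3 then passed as lower (−0.22), but as higher without replicate 4 before culture (0.23) or with sample weights (0.24).

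Among 21 adaptors and E3 ligases, 11 were higher, 5 lower and 5 did not pass (median 0.19). Traf1, an adaptor of TNF receptor family members, went from 6697 ± 290 to 20711 ± 2271 (log2 fold change 1.62), and Traf2 from 717 ± 48.5 to 1821 ± 154 (1.34). The ligases Birc2 (1429 ± 162 to 6283 ± 1235, 2.12) and Birc3 (4522 ± 332 to 10348 ± 1002, 1.19), which with Traf2 keep the Map3k14 protein low in resting cells, rose as well. The lower genes were Myd88, the adaptor of toll-like and interleukin-1 receptors (3729 ± 414 to 1475 ± 347, −1.36), its kinase partner Irak2 (−0.84), Bcl10 (−0.49), Rbck1 (−0.47) and Card9 (−0.38). Of these, Rbck1 and Card9 did not pass once the GC content and length trend was removed, and Card9 not without replicate 1 or 2 before or replicate 4 after culture (−0.33 in each). Malt1 (0.07), Irak1 (0.01), Ripk1 (−0.05), Ripk2 (−0.12) and Sharpin (−0.14) did not pass. With the GC content and length trend removed all 5 passed, Irak1 (0.25) and Sharpin (0.22) higher and Malt1 (−0.49), Ripk1 (−0.22) and Ripk2 (−0.22) lower. Sharpin also passed without replicate 4 before culture (−0.15) and with a minimum mean of 50, TMM scaling, sample weights, edgeR or DESeq2 (−0.15 to −0.14), so its direction depends on that trend.

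The other 10 negative regulators went both ways, with 5 higher, 2 lower and 3 that did not pass (median 0.25). Zc3h12a, which encodes the RNase Regnase, fell 3.5-fold (6189 ± 291 to 1768 ± 130, log2 fold change −1.81, limma adjusted p = 1.13e-10). Tnip2, a binding partner of A20, fell 2.09-fold (1363 ± 173 to 651 ± 22). Itch (0.70), Cyld (0.52), Tnip1 (0.40), Tax1bp1 (0.31) and Rnf11 (0.27) were higher, the last 2 no longer so with the GC content and length trend removed, and Rnf11 not without replicate 1 before (0.23) or replicate 4 after culture (0.21). Tnip3 (0.18), Nlrc3 (0.23) and Otulin (0.01) did not pass. Tnip3 did without replicate 5 before culture (0.27) and with sample weights (0.26), and Nlrc3 without replicate 4 before (0.30) or replicate 2 after culture (0.31), and with sample weights (0.25). With the GC content and length trend removed all 3 passed, Nlrc3 (0.60) and Otulin (0.23) higher and Tnip3 (−0.39) lower.

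Receptors that feed the pathway split evenly, with 4 of 9 higher, 4 lower and 1, Tnfrsf13c (0.15), that did not pass. Tnfrsf11a, the receptor RANK, went from 1567 ± 191 to 5820 ± 421 (log2 fold change 1.90), Tnfrsf1b from 12527 ± 1025 to 32225 ± 4674 (1.36), Tlr4 by 1.16 and Cd40 from 1223 ± 70.1 to 2590 ± 406 (1.07). Tlr2 went from 9087 ± 609 to 3318 ± 882 (−1.49), Tnfrsf1a fell by 1.28, Il1r1 by 0.65 and Ltbr by 0.38. Ltbr, which signals to the non-canonical branch, did not pass when any sample other than replicate 4 before or replicate 2 after culture was left out (−0.37 to −0.24), nor with the GC content and length trend removed (0.20). Of the 8 ligands, 6 were lower and 1 higher (median −1.06). Il1b went from 22902 ± 3456 to 3895 ± 851 (−2.57), Tnf from 2773 ± 333 to 1071 ± 280 (−1.40), Tnfsf13b from 363 ± 55.9 to 53.5 ± 3.83 (−2.73) and Tnfsf11 from 148 ± 42.8 to 48.5 ± 13.3 (−1.59). Ltb was higher (0.29), though not without replicate 1 (0.25) or 4 (0.27) after culture, and Lta (0.19) passed only with the GC content and length trend removed (0.45).

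Of 26 textbook NF-kB target genes, 9 were higher, 14 lower and 3 did not pass (median −0.43). The whole table also went both ways, with 34.2% of tested genes higher and 34.6% lower. Ccr7, the receptor that guides dendritic cells to lymph nodes, and the chemokine Ccl5 were higher (log2 fold changes 2.74 and 3.01, limma adjusted p = 4.56e-12 and 2.18e-10). The chemokines Ccl4 (1893 ± 113 to 70.6 ± 28.1) and Cxcl2 (14165 ± 3467 to 708 ± 250) were lower. Il12b (0.32), Irf1 (0.11) and Csf2 (0.68) did not pass. Il12b did without replicate 4 before (0.43) or replicate 2 after culture (0.52), and with sample weights (0.46). Csf2 did without replicate 3 before culture (0.89) and with quantile normalization (0.86), and Irf1 with the GC content and length trend removed (0.35). The near-identical Bcl2a1a, Bcl2a1b and Bcl2a1d are among the 9 counted higher. Of the 50-base windows of the longest transcript of each, 69 to 79.5% occur in transcripts of other genes. How their reads were shared out is thus uncertain. For the 10 members themselves this share was at most 1.1%.

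**Figure D3:**
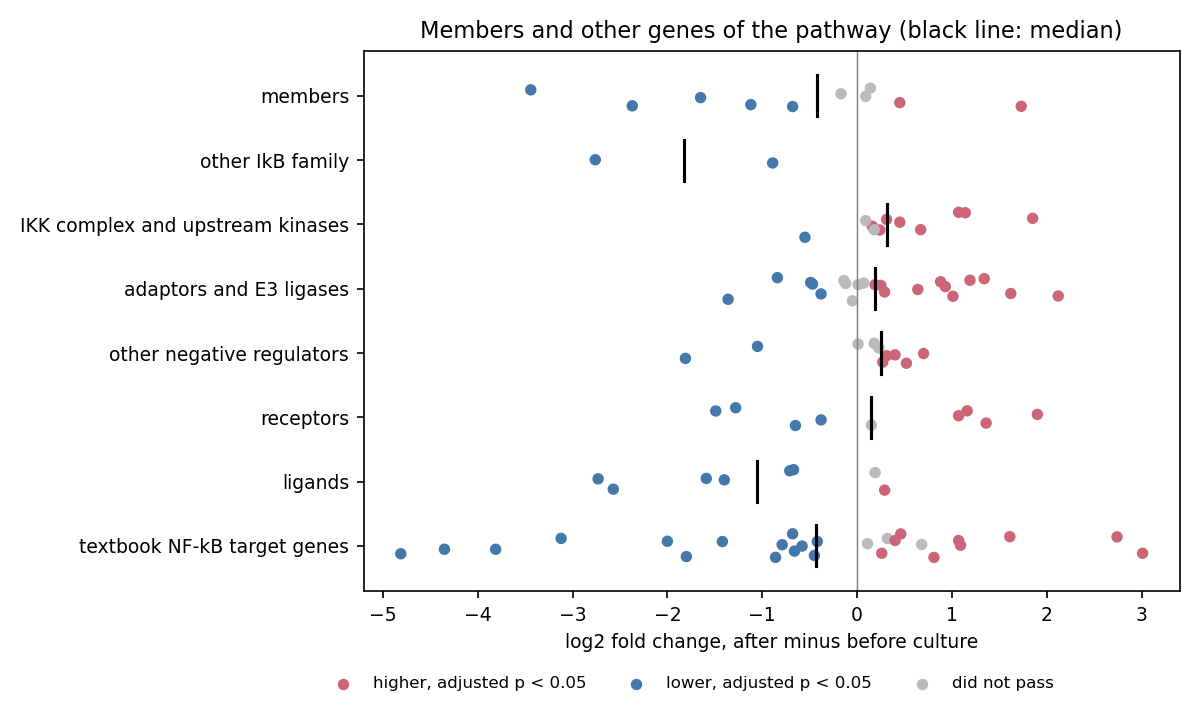
Log2 fold change, after minus before culture, of the 10 members and of the 87 genes of 7 pathway lists, 1 point per gene, red where higher and blue where lower at an adjusted p under 0.05, grey where the test was not passed. The black line is the list median, which is 0.31 for the IKK complex and upstream kinases, −1.06 for the ligands and −0.42 for the members.

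Genes whose levels over the 9 samples were most like each member's were looked up among 11776 others with a mean of at least 100, by Pearson's r of log2(normalized count + 1). The 9 samples fall into 2 groups, so a high r mostly restates the difference between them, and no p is given. Nfkbiz was most like Kdm6bos and Dll1, a Notch ligand gene (r = 0.999 for both), and 327 genes reached an r of 0.99. Tnfaip3 was most like Vps37b and Gm42141 (0.999), Nfkbia like Srgn and Nsmf (0.998) and Relb like Ssh1, a cofilin phosphatase gene, and Adcy6, an adenylyl cyclase gene (0.999). Ssh1 went from 3450 ± 278 to 11370 ± 421 and Srgn, which encodes the granule proteoglycan serglycin, from 15507 ± 2131 to 5209 ± 250 (SD). For Nfkb1 the nearest genes were Unc119 (0.997) and Acadvl (0.996), for Nfkbie Tnk2 (0.997) and Tgif1 (0.996), and for Nfkb2 Frmd8 (0.993) and Yipf1 (0.991). The members that did not pass had fewer near neighbours: Rela was nearest Brap (0.994) and Mrpl30 (0.982), Rel nearest Dpp4 (0.962) and Atxn7 (0.957), and Nfkbib nearest Hps1 (0.942) and Pik3r6 (0.893).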

How the data were processed

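RNA of 9 samples, 5 before and 4 after culture, was sequenced, and a sample's group was taken from its title. The authors deposited 1 table that holds, for each gene and sample, a normalized read count (a scaled signal). DESeq2 and the build GRCm38 are named in the submitters' processing notes. The aligner, counting tool, annotation and strandedness are not given in the sources used here. All values (100%) were whole multiples of 1 read per column (relative tolerance 1e-06), so whole reads were recovered. The 3782 rows without a symbol were left out. The labels name no animals, so p-values measure the spread between these samples, which may be technical.

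Genes with a mean of at least 10 were fitted with limma 3.58.1 (R 4.3.3) on log2(value + 1), with group as the only term and a mean-variance trend. This log2 scale understates the change of low genes. Pairs of members were compared by exact permutation. Alternatives were pseudocounts of 0.5 and 8, no filter or a minimum mean of 50, TMM, upper quartile and quantile scaling, sample weights, edgeR 4.0.16 and DESeq2 1.42.0 on recovered reads, a replicate block, each sample left out, and removal of each sample's trend over GC content and length (spline fit on GENCODE M21, values for 96.3% of tested genes). GC content is that of a gene's longest transcript, and length that of its merged exons. The trend removal was added for pairs after seeing the data. The fit was also run on simulated counts in which only a small part of the genes changed. These data differ in that respect, so that run does not bear on the share of genes called here. Python 3.11.15, NumPy 2.4.6, pandas 2.3.3 and matplotlib 3.10.9 were used.

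The members and lists were chosen with earlier results of these data known. Genes named are the 10 members, up to 4 genes per list with the smallest adjusted p, list genes with a mean of at least 1000 that did not pass, and the 2 genes most like each member. List groups of 5 or fewer were named after their values were seen.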

Additional observations from a re-analysis of the deposited data

Results flagged for a closer look

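In 130 groups of 4 or 5 samples, 1 for each named gene before and after culture, the gap between the highest or lowest sample and its nearest neighbour was set against the group's range, and 5 samples stood out by Dixon's test. Chance gives such a sample in about 1 in 20 groups. For Relb, replicate 4 before culture was low at 2634 (others 3094 to 3174). Nfkb2 had 1 high sample, replicate 1 after culture, at 11586 (others 10543 to 10696). Nfkbie was high in replicate 5 before culture, at 8631 (others 7019 to 7445), and in replicate 1 after culture, at 3870 (others 3304 to 3346). Rbck1 was high in replicate 1 after culture, at 2466 (others 2233 to 2246). None of these samples reached the other group's range for its gene.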

How the results depend on the processing

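The 21 main results (10 members, the counts of changed genes and members, and 8 pairs) were recomputed under up to 13 other settings with all samples and with each of the 9 samples left out. Nfkb1, Nfkb2, Relb, Nfkbia, Nfkbie, Nfkbiz and Tnfaip3 kept their direction and call throughout. Rel ran from 0.09 to 0.20 with a sample left out. Rela ran from −0.21 to −0.13 and passed at −0.18 with TMM scaling, quantile normalization, sample weights and edgeR, and at −0.17 with a replicate block on the library number. With the GC content and length trend removed, Rel was −0.20, Rela 0.39 and Nfkbib 0.58, which made 4 members higher. The pair Rel against Rela ran from 0.23 to 0.39 with a sample left out, did not pass under quantile normalization (0.29) and was −0.59 with the trend removed. The cause was not tested.

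Replicate numbers in the titles did not pair the samples (correlation of deviations −0.213 to 0.0807). Those in the library names correlated at 0.0447 to 0.349, each sample best with its own number, a hint from the data and not the design. All genes called numbered 12524, 11646 with the replicate block on title number and 12836 on library number. With the title-number block Csf2 (0.74) and Tnip3 (0.27) passed and Ltbr (−0.36) and Ltb (0.30) did not, and with the library-number block Il12b (0.35) and Nlrc3 (0.23) passed. Paired sign-flip tests of the title-number block cannot go below 0.125 for 4 pairs, so no pair passed: Rel against Rela 0.30, Relb against Rela 1.89, Nfkb2 against Nfkb1 1.13, Relb against Nfkb2 1.26, Nfkbia against Nfkbib −1.73, Nfkbie against Nfkbib −1.19, Nfkbiz against Nfkbia −1.80 and Tnfaip3 against Nfkbia −0.74.

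Among other genes, Irak1 (0.01) turned to −0.00035 with TMM scaling, −0.01 with quantile normalization, −0.0005 with edgeR and −0.00061 with the library-number block, and ran from −0.01 to 0.03 with a sample left out. Otulin ran from −0.03 to 0.06 with a sample left out. With the trend removed, Malt1 was −0.49, Tnip3 −0.39, Tab3 −0.22, Tax1bp1 −0.14, Rnf11 −0.11, Card9 0.02, Rbck1 0.14, Ltbr 0.20 and Sharpin 0.22, each opposite in sign to its main value. The limits are 4 or 5 samples a group, unknown animals per sample, bulk RNA of cells with markers of other types, and an unknown counting rule for overlapping exons.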
